A study of Marchantia polymorpha with 12 samples.

Results

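MpHY5 is the gene Mp1g16800 of the liverwort Marchantia polymorpha, and its transcript was followed through every library of the series. It was picked by its identifier, with earlier results of these data known, and is 1 of the 18255 genes listed. It was also among the 15999 genes that passed a filter on low values (at least 1 normalized read in at least 3 libraries). The gene table used for names lists this locus as MpBZIP1, and its reading as MpHY5 follows published nomenclature, which was not tested here. RNA came from whole gemmalings, the small plants that grow out of asexual gemmae, at 7 days of age under white light of 50 µmol per square metre per second. Male plants of the wild type Tak-1 and of a mutant with the genotype Mphy5-1 were each taken with no UV-B (0 h) or after 3 h in which UV-B of 1.5 µmol (in the same unit) was added, with 3 libraries in each of the 4 groups. The sources used here do not describe the lesion of Mphy5-1. The mutant is represented by this allele alone, so effects of the lesion and other differences between the lines cannot be told apart. Harvest hours are not among the labels, and the part of elapsed time in the UV-B comparisons was not tested. Nor do the labels tie replicates to separate cultures, so the spread behind each p-value is that between these samples and may be technical.

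HY5 is a transcription factor of the bZIP class, in which a basic stretch contacts DNA and a leucine zipper pairs the protein with a partner. In flowering plants it is a central activator of light responses. In darkness the COP1 and SPA ubiquitin ligase marks it for breakdown, and light receptors, among them the UV-B receptor UVR8, hold that ligase in check. In Arabidopsis, HY5 takes part in the UV-B induction of flavonoid enzymes, of the RUP proteins that switch UVR8 off again, and of its own gene.

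The libraries held 44787979 to 67532310 reads assigned to genes. The male V chromosome, with 92 genes, held 127761 to 188795 reads per library, against 79 to 171 for the 63 genes of the female U chromosome, which is the male pattern of the labels in both lines. The values are normalized reads, that is, reads per gene that the authors scaled with 1 size factor for each library. Values of different genes depend on transcript length and are compared here only as changes.

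MpHY5 was readily measured in every library and formed 4 separate steps. In wild type without UV-B it stood at 1418, 1319 and 1281 normalized reads, counted from 1546, 1318 and 1248 reads. In Mphy5 without UV-B it stood at 1592, 1522 and 1521, from 1468, 1950 and 1868 reads. The lowest of the 3 mutant libraries lay above the highest of the 3 wild type libraries by 103.1 normalized reads, a narrow gap. With UV-B the wild type libraries reached 5999, 6354 and 5745, from 5161, 5439 and 5498 reads. The Mphy5 libraries with UV-B reached 16018, 16815 and 15534, from 14933, 20770 and 13006 reads. No library of any group overlapped with another group, and the order of the levels was wild type without UV-B, Mphy5 without UV-B, wild type with UV-B, Mphy5 with UV-B. Because whole plants were sampled, a higher level in each cell and a larger share of cells with the transcript cannot be told apart.

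**Figure D1:**
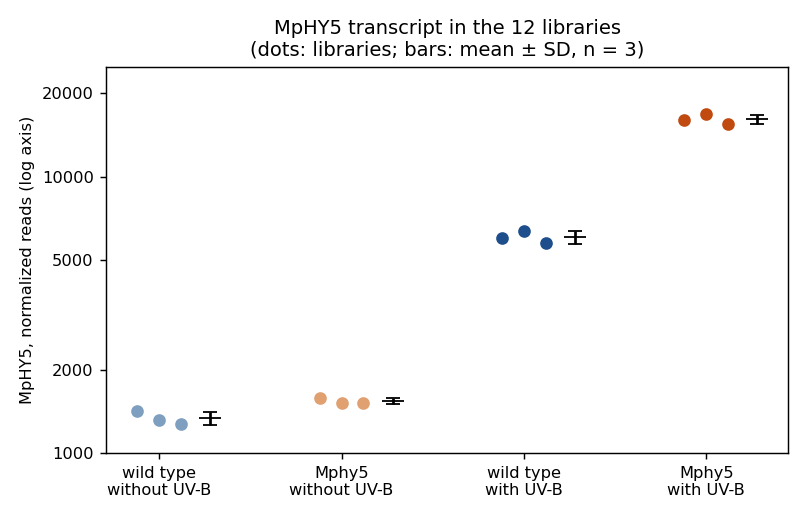
Normalized reads of MpHY5 on a log axis in the 12 libraries, with dots for libraries and bars for the mean ± SD of 3 libraries. The groups form 4 steps, from 1281 to 1418 in wild type without UV-B up to 15534 to 16815 in Mphy5 with UV-B.

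The transcript was thus present in the mutant at no less than the wild type level. Since some lesions spare the transcript, its level is no test of the mutant's label, and a table of reads per gene cannot show which transcript form the reads came from.

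The spread between replicates was small beside the steps. The group means were 1339 ± 70.5, 1545 ± 40.9, 6033 ± 306 and 16122 ± 647 normalized reads (SD, n = 3) in the order of the steps. The coefficient of variation, the SD as a share of the mean, was 5.27%, 2.65%, 5.07% and 4.01% in the same order, and counting error alone would give 2.7%, 2.38%, 1.37% and 0.785%. Variation thus exceeded counting error most clearly in the groups with UV-B. Among the genes with a group mean of at least 500 normalized reads, the median coefficient of variation was 3.99% in wild type without UV-B, 4.63% in Mphy5 without UV-B, 4.89% in wild type with UV-B and 4.41% in Mphy5 with UV-B, so MpHY5 varied about as much as other well-covered genes.

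The first question was how MpHY5 answers UV-B in each line. It rose 4.50-fold in wild type (95% interval 4.18 to 4.85; log2 fold change 2.17, SE 0.05, limma adjusted p = 2.4e-17), and any pair of a treated and an untreated library gave between 4.05 and 4.96-fold. In Mphy5 it rose 10.4-fold (95% interval 9.67 to 11.2; log2 fold change 3.38, SE 0.05, adjusted p = 1.7e-20), with 9.76 to 11.1-fold for any pair of libraries. limma is a linear model fitted across all tested genes on log2(value + 1), and a gene is called where its adjusted p is under 0.05. It called 29.2% of tested genes in the wild type comparison and 31.8% in that of Mphy5, in either direction. By size of the rise MpHY5 ranked 135 of 15999 in wild type and 32 in Mphy5, and among the 9199 genes whose mean over all libraries reached 500 normalized reads it ranked 40 and 7. In a two-sided exact permutation test of 3 against 3 libraries each of these comparisons, and each of those between the lines, gave p = 0.1, the smallest value that this design allows.

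The second question was whether the response differs between the lines. The response of Mphy5 exceeded that of wild type by 1.21 on the log2 scale (SE 0.07, 95% interval 1.06 to 1.36, limma adjusted p = 1.1e-08), a ratio of folds of 2.32. This difference of responses was called for 4.46% of tested genes, and MpHY5 had the smallest p-value of the 15999. By size it ranked 464 over all tested genes, 24 among the 308 genes called with a more positive response in Mphy5, and 7 among the 9199 genes with a mean of at least 500. In normalized reads the gain was 4694 in wild type, with 4327 to 5073 for any pair of libraries, and 14577 in Mphy5, with 13942 to 15294. The gain was therefore 3.11 times as large in the mutant, and the ranges of the lines did not overlap.

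The third question was how the lines differ at each light condition. Without UV-B the mutant stood 1.15-fold above wild type (95% interval 1.07 to 1.24; log2 fold change 0.21, limma adjusted p = 0.0056), in a comparison in which 24.9% of tested genes were called. When each library was rescaled to the reference genes MpACTIN7, MpEF1 and MpAPT, an alternative added after the data were seen, this difference was 0.14 and no longer called (adjusted p = 0.17). With UV-B the mutant stood 2.67-fold above wild type (95% interval 2.48 to 2.88; log2 fold change 1.42, SE 0.05, adjusted p = 5.9e-14), where 29.8% of tested genes were called, and the same rescaling gave 1.42. On the log2 scale the excess with UV-B is the sum of the 0.21 found without UV-B and the 1.21 by which the responses differ.

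**Figure D2:**
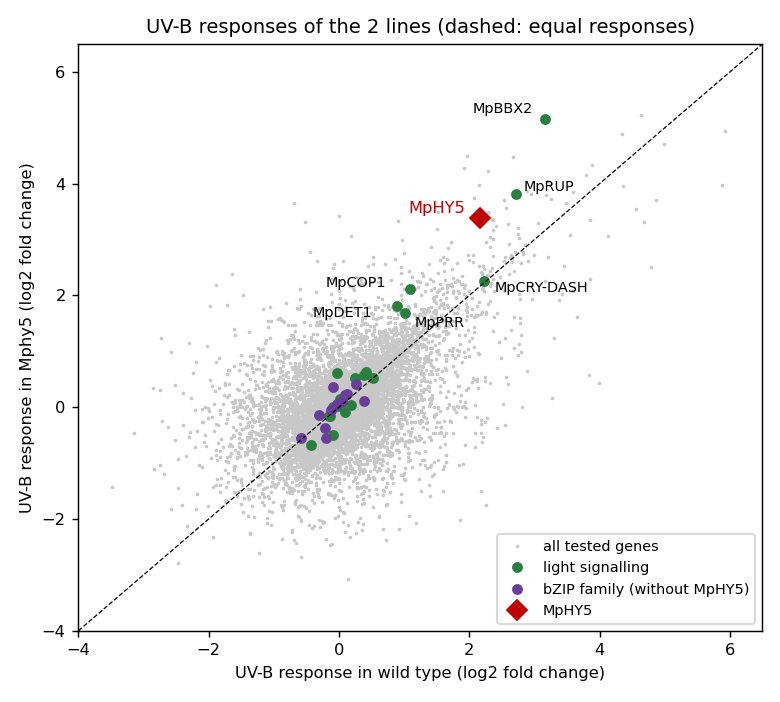
UV-B response in wild type (horizontal axis) against that in Mphy5 (vertical axis), both as log2 fold changes. Grey dots are the 15999 tested genes, with light signalling genes in green, other bZIP genes in purple and MpHY5 as a red diamond. MpHY5 lies at 2.17 and 3.38, above the dashed line of equal responses, with MpRUP and MpBBX2 above it and the other bZIP genes near the origin.

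The reference genes moved little beside MpHY5. MpEF1, a translation elongation factor, had UV-B responses of 0.02 in both lines, and MpAPT, an adenine salvage enzyme, of -0.06 and -0.12. The value of MpAPT in Mphy5 was not called, but became -0.17 and was called (limma adjusted p = 0.0344) without treated Mphy5 replicate 3. MpACTIN7 had -0.03 in wild type and fell by 0.18 in Mphy5 (limma adjusted p = 0.024). Leaving out Mphy5 replicate 3 without UV-B (0.141), or replicate 1 (0.143) or 3 (0.0713) of Mphy5 with UV-B, ended this call, as did no filter (0.103) or no trend and robust options (0.1). Without UV-B, MpAPT and MpACTIN7 had log2 differences of 0.13 and 0.08 between Mphy5 and wild type, and limma called neither in the fit of all 4 groups. Fitted on the untreated libraries alone, MpAPT was called higher in Mphy5 (adjusted p = 0.0451).

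The other light signalling genes were taken as a list of 21 by symbol: receptors, the COP1 complex, RUP, B-box factors and clock genes. This list, like the bZIP and flavonoid lists below, was chosen with earlier results of these data known, so its counts are descriptions. In wild type 11 rose and 3 fell with UV-B, where 14.6% of tested genes were called higher and 14.6% lower, and in Mphy5 12 rose and 4 fell, against 15.9% and 15.9%. Their median response was 0.18 in wild type and 0.53 in Mphy5, against -0.01 over all tested genes in both lines. The difference of responses was more positive in Mphy5 for 7 of the 21 and more negative for 1, against 1.93% and 2.54% of tested genes. Leaving out each library in turn gave 7 to 8 more positive and 0 to 2 more negative, with 0 without untreated wild type replicate 1 and 2 without untreated Mphy5 replicate 2. The falls in wild type numbered 1 without untreated replicate 2 or treated replicate 1, and 2 without untreated replicate 1 or treated replicate 2, of the wild type.

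Among the receptors, transcripts that feed signals towards HY5 changed far less than MpHY5. MpUVR8, the UV-B receptor, had responses of -0.04 in wild type and 0.03 in Mphy5, with a difference of 0.07 (95% interval -0.07 to 0.21). MpPHY, the red light receptor, rose by 0.52 and 0.53 on the log2 scale (limma adjusted p = 1.5e-08 and 7.9e-09), and the blue light receptor MpCRY by 0.18 in wild type (adjusted p = 0.0014) with 0.05 in Mphy5. MpPHOT, the blue light receptor of phototropism in flowering plants, had 0.01 in wild type and 0.14 in Mphy5. Its call in Mphy5 (adjusted p = 0.033) ended when Mphy5 replicate 2 (0.103) or 3 (0.152) of the untreated plants, or 2 (0.106) or 3 (0.0778) of the treated ones, was left out, with no filter (0.0794) and without limma's trend and robust options (0.0941). MpCRY-DASH, a relative of cryptochromes and photolyases, shared the size of the wild type rise of MpHY5 but not its excess in the mutant. In wild type its mean went from 1232 ± 83.3 to 5795 ± 437 normalized reads, and in Mphy5 it went from 677.4 ± 73 to 3248 ± 26.4 (SD, n = 3), with a difference of responses of 0.03 (95% interval -0.18 to 0.25).

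Of the light signalling genes, MpRUP, MpCOP1 and MpDET1 came closest to MpHY5 in the difference of responses. MpRUP, whose Arabidopsis relatives inactivate UVR8, had a difference of responses of 1.11 (95% interval 0.93 to 1.28), MpCOP1 of 1.02 (0.88 to 1.16) and MpDET1, a repressor of light responses that works with COP1 in flowering plants, of 0.92 (0.76 to 1.08), beside 1.21 (1.06 to 1.36) for MpHY5. Their starting levels set them apart from it. Without UV-B, MpRUP stood lower in Mphy5 than in wild type by 0.81 on the log2 scale and MpCOP1 by 0.20 (limma adjusted p = 3.9e-09 and 0.0039), and MpDET1 had -0.17, while MpHY5 had 0.21. The call of MpDET1 there (adjusted p = 0.024) did not survive leaving out wild type replicate 1 (0.0521) or 2 (0.128) or Mphy5 replicate 2 (0.0813) or 3 (0.078), all without UV-B, and was also lost with no filter (0.0803) and without trend and robust options (0.0883). With UV-B they stood higher in Mphy5 by 0.29 for MpRUP, 0.82 for MpCOP1 and 0.75 for MpDET1, against 1.42 for MpHY5. These comparisons share libraries with the difference of responses, so their values are given side by side and not as separate evidence. Of the rest of the COP1 complex, the partner MpSPA1 rose by 0.42 in wild type and 0.63 in Mphy5 (limma adjusted p = 6.2e-06 and 1.7e-08) with no called difference. The adaptor MpDDB1 had 0.02 and 0.01.

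B-box proteins, zinc finger factors of which some bind HY5 in Arabidopsis, went several ways. MpBBX2 had both a larger rise and a larger excess than MpHY5. Its mean in wild type went from 73.8 ± 17 to 653.9 ± 46.9 normalized reads, and in Mphy5 it went from 95.6 ± 15.2 to 3434 ± 179 (SD, n = 3), with a difference of responses of 2.01 (95% interval 1.56 to 2.46, limma adjusted p = 1e-05). MpBBX3 had -0.03 in wild type and rose by 0.62 in Mphy5, a called difference of 0.65, and MpBBX1 rose by 0.24 and 0.53, a called difference of 0.29. MpBBX5 fell by 0.43 and 0.67, and its difference of -0.24 (adjusted p = 0.016) was no longer called without untreated wild type replicate 1 (0.0505) or without limma's trend and robust options (0.0571). MpBBX6 fell by 0.50 in Mphy5 with -0.10 in wild type. MpBBX4 had responses of -0.14 and -0.15, and the call in wild type ended when its replicate 1 (0.0603) or 2 (0.0561) of the untreated plants, or 1 (0.0535) or 2 (0.0575) of the treated ones, was left out. The call in Mphy5 ended when its treated replicate 2 was (0.0752).

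Of the clock genes, MpPRR, a pseudo-response regulator, rose by 1.02 in wild type and 1.69 in Mphy5, a called difference of 0.67 (limma adjusted p = 1.6e-05). MpELF3, of the evening complex, rose by 0.39 and 0.57 (adjusted p = 1.9e-05 and 8e-08). MpGI had -0.15 in both lines, and its call in wild type ended when untreated replicate 2 (0.101) or treated replicate 1 (0.097) was left out. In Mphy5 it ended when untreated replicate 2 (0.0558) or treated replicate 3 (0.0743) was left out. MpTOC1 (0.09 and -0.08) and MpFKF (-0.09 and -0.00) were called in neither line. The responses of these genes are therefore spread from falls to rises, and MpHY5 lay at the upper end of the range in both lines, below MpBBX2, MpRUP and, in wild type, MpCRY-DASH.

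**Figure D3:**
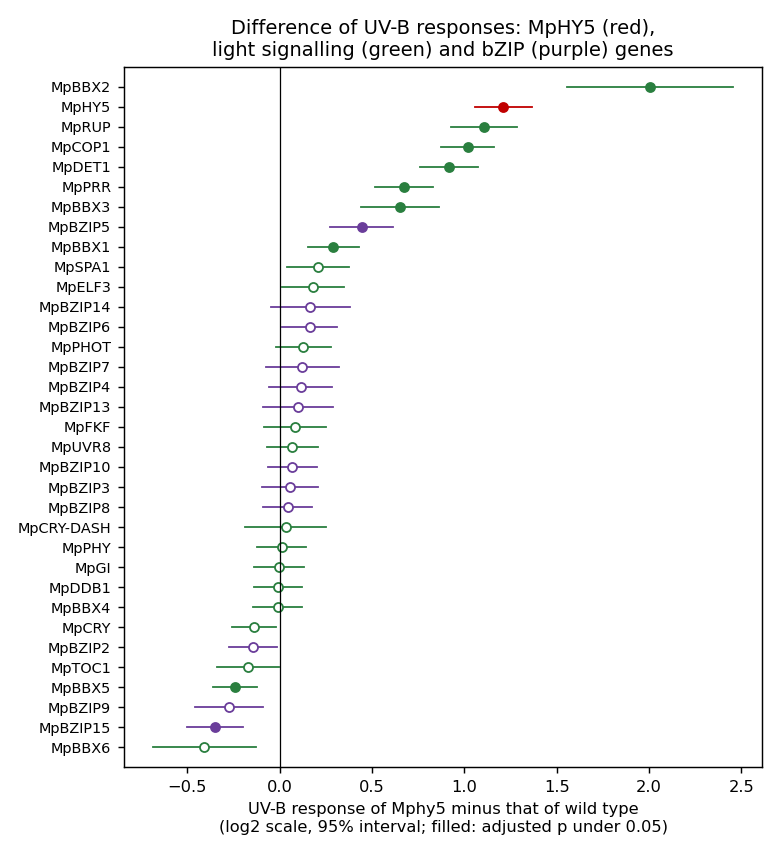
Difference of UV-B responses (Mphy5 minus wild type, log2 scale) for MpHY5 in red, 21 light signalling genes in green and 12 other bZIP genes in purple. Lines are 95% intervals and filled dots have an adjusted p under 0.05. MpHY5 at 1.21 is second to MpBBX2 at 2.01, followed by MpRUP at 1.11 and MpCOP1 at 1.02.

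The other genes of its family responded far less. Of the 12 other bZIP genes with symbols, 2 rose and 5 fell with UV-B in wild type, against 14.6% of tested genes in each direction, and 4 rose and 4 fell in Mphy5, against 15.9% in each. Their median responses were -0.06 and 0.09, against 2.17 and 3.38 for MpHY5. The largest rise of another bZIP gene was that of MpBZIP9 in wild type (0.38, limma adjusted p = 5.8e-05) and of MpBZIP14 in Mphy5 (0.42, adjusted p = 8.6e-05), which also rose by 0.26 in wild type. MpBZIP8, which the name table also calls MpTGA after the TGA class of bZIP factors, fell by 0.59 and 0.54 (adjusted p = 1.7e-09 and 4.1e-09), MpBZIP2 by 0.22 and 0.37, and MpBZIP6 by 0.30 in wild type. In Mphy5 MpBZIP6 had -0.14, and its call ended when untreated replicate 1 (0.0723) or 2 (0.124), or treated replicate 1 (0.0578), 2 (0.0629) or 3 (0.1), was left out. MpBZIP4 rose by 0.24 in Mphy5 (adjusted p = 0.0028). Calls of 2 further members with small changes depended on single libraries. MpBZIP7 (0.22 in Mphy5) lost its call when untreated replicate 2 (0.0515) or 3 (0.109) or treated replicate 2 (0.073) was left out. MpBZIP10 (-0.12 in wild type) lost its call without any of 7 libraries, with adjusted p from 0.0523 to 0.148, and with TMM rescaling (0.0556), by edgeR (0.0568) and without trend and robust options (0.079). MpBZIP13 and MpBZIP3 were called in neither line.

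The difference of responses was called for MpBZIP5 and MpBZIP15 among these 12, against 4.46% of tested genes. MpBZIP5 stood at 1606 ± 83.6 without and 1508 ± 79.4 normalized reads with UV-B in wild type, and at 1738 ± 19.6 and 2223 ± 48.8 in Mphy5 (SD, n = 3; difference 0.45, limma adjusted p = 0.0023), so that its rise in the mutant was small beside that of MpHY5. MpBZIP15 fell by 0.20 in wild type and by 0.54 in Mphy5 (difference -0.35, adjusted p = 0.0062), which was not called with no filter on low values (0.063) or without limma's trend and robust options (0.079). Without UV-B, 3 of the 12 were called higher in Mphy5 and 0 lower, against 11% and 13.9% of tested genes. The 3 were MpBZIP3, MpBZIP4 and MpBZIP6, and 0 stayed called without untreated wild type replicate 3 or untreated Mphy5 replicate 1. Of the 3, 1 stayed called without untreated wild type replicate 2, untreated Mphy5 replicate 2 or untreated Mphy5 replicate 3, and in the last case MpBZIP9 gained a call (0.0336). With UV-B, 5 were called higher and 1 lower, against 13.8% and 16%.

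Genes with a pattern like that of MpHY5 were sought among 12017 tested genes whose mean reached 50 normalized reads. Likeness was the root mean square difference over the 12 libraries on the log2 scale, with each gene centred on its own mean, so that both shape and size count. The 10 nearest genes lay at 0.270 to 0.519 from MpHY5, against a median of 1.49 over the genes compared. The nearest was Mp8g13250, which has no symbol, at a distance of 0.270 and a Pearson correlation of 0.985 over the 12 libraries. Its means were 817.6 ± 50.3 without and 5556 ± 589.9 normalized reads with UV-B in wild type, and 1488 ± 84.9 and 12099 ± 829 in Mphy5 (SD, n = 3), so that the lines already differed without UV-B and the difference of responses (0.26) was not called. Mp6g03560 was next at 0.311, rising by 2.31 and 3.04 with a called difference of 0.73, and Mp6g14720 at 0.415, rising by 2.59 and 3.28 with a called difference of 0.69. Mp3g11080 at 0.462 had responses of 2.37 and 3.34, near those of MpHY5, but stood higher in Mphy5 without UV-B by 1.21. The library values are descriptions, since all genes share the same libraries and the groups form clusters. The 10 nearest genes were chosen for following MpHY5 over these libraries. Their differences of responses, here and below, are therefore partly set by that choice and are not separate evidence.

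MpSIG5 was the nearest gene with a symbol, at 0.479 and a correlation of 0.987. In flowering plants SIG5 is a light-induced sigma factor that guides the plastid RNA polymerase to its promoters. MpSIG5 stood at 1946 ± 146 without and 6591 ± 679.6 normalized reads with UV-B in wild type, and at 1995 ± 143 and 9930.2 ± 516 in Mphy5 (SD, n = 3). Its difference of responses was 0.56 (limma adjusted p = 0.0037), and was not called with no filter on low values (0.0689) or without limma's trend and robust options (0.0667). The remaining 5 were Mp3g19890, Mp6g07750, Mp8g13560, Mp6g15510 and Mp1g15790, at 0.492 to 0.519. Of these, Mp6g07750 and Mp6g15510 had called differences of 0.56, lost with no filter (0.0511), and 0.46. Mp8g13560, which lies under 30 normalized reads in each library without UV-B, had a difference of 1.66 that was not called (adjusted p = 0.052) but was without untreated Mphy5 replicate 3 (0.00232), by edgeR (0.0497) and by DESeq2 (0.0157). Mp3g19890 had a difference of -0.29, also not called (0.082), which was called without untreated Mphy5 replicate 1 (0.0176) or treated wild type replicate 3 (0.0301), by edgeR (0.0335) and by DESeq2 (0.0352). Mp1g15790 rose by 2.29 and 2.37 with a difference of 0.08.

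**Figure D4:**
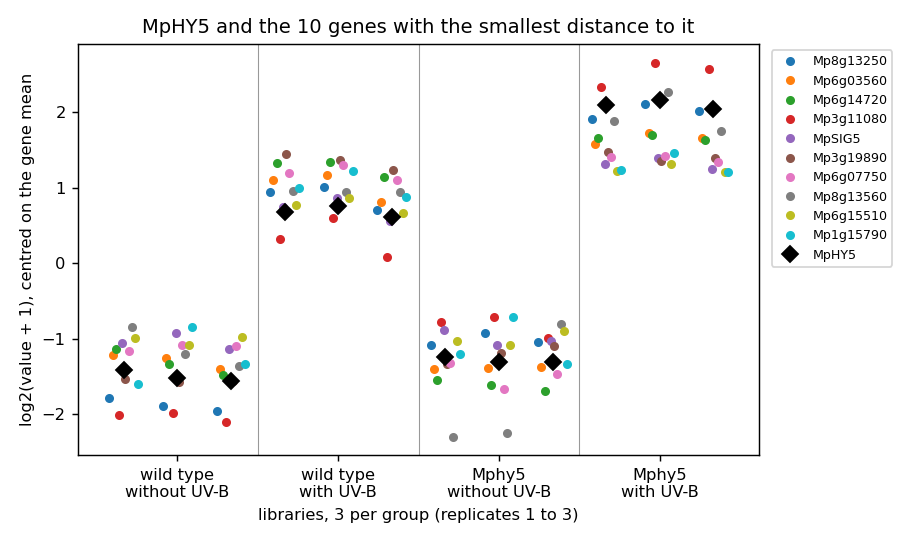
log2(value + 1) of MpHY5 (black diamonds) and of the 10 nearest genes (coloured dots), each centred on its own mean, in the 12 libraries grouped by line and treatment. In Mphy5 with UV-B, MpHY5 lies on average above 9 of the 10, with Mp3g11080 the exception, and the distances to it run from 0.270 to 0.519.

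When shape alone was used, by ranking genes on the Pearson correlation over the same 12 libraries, 0 of these 10 genes stayed among the first 10. The first by correlation were Mp1g25850 (0.997) and MpBBX2 (0.995), and MpPRR (0.994) and MpCOP1 (0.991) were also among the first 10. Their changes differ from those of MpHY5 in size, with distances of 0.741, 0.799, 0.774 and 0.643, and MpCOP1 stood lower in Mphy5 than in wild type without UV-B, where MpHY5 stood higher. A correlation above 0.95 was reached by 178 genes, 1.48% of those compared, so a high value is not rare here.

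The genes beside MpHY5 on the chromosome had far smaller UV-B responses. In the gene order of the name table, the nearest were MpTRIHELIX1, of the trihelix transcription factor family, on one side and Mp1g16810 on the other. MpTRIHELIX1 had UV-B responses of 0.02 in both lines. It stood higher in Mphy5 by 0.26 both without and with UV-B (limma adjusted p = 0.0022 and 0.0017), beside 0.21 for MpHY5 without UV-B. Mp1g16810 had -0.05 in wild type and -0.17 in Mphy5, and the call in Mphy5 did not survive leaving out replicate 1 without UV-B (0.131) or replicate 2 (0.0682) or 3 (0.0949) with UV-B, all of the mutant. Among the other 4 of the 3 genes on each side, Mp1g16780 rose by 0.27 and 0.36 and Mp1g16820 by 0.33 and 0.44, while Mp1g16770 and Mp1g16830 were called in neither line. Over all tested genes 14.6% were called higher with UV-B in wild type and 15.9% in Mphy5. Between the untreated lines, Mp1g16780 was called lower in Mphy5 (-0.18, limma adjusted p = 0.03), opposite to MpTRIHELIX1. That call ended without untreated wild type replicate 1 (0.164) or untreated Mphy5 replicate 2 (0.124) or 3 (0.0598). It also ended with no filter (0.0658) or no trend and robust options (0.0736). Mp1g16770, Mp1g16810, Mp1g16820 and Mp1g16830 (-0.05 to 0.09) were not called in that comparison. Over all tested genes 11% were called higher and 13.9% lower. The difference of responses was called for none of the 6 in limma, edgeR or DESeq2, with limma values of -0.12 to 0.11 whose 95% intervals all include 0, so that 0 had an unadjusted p under 0.05. With 4.46% of tested genes called, 0 of 6 says nothing particular about these neighbours.

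**Figure D5:**
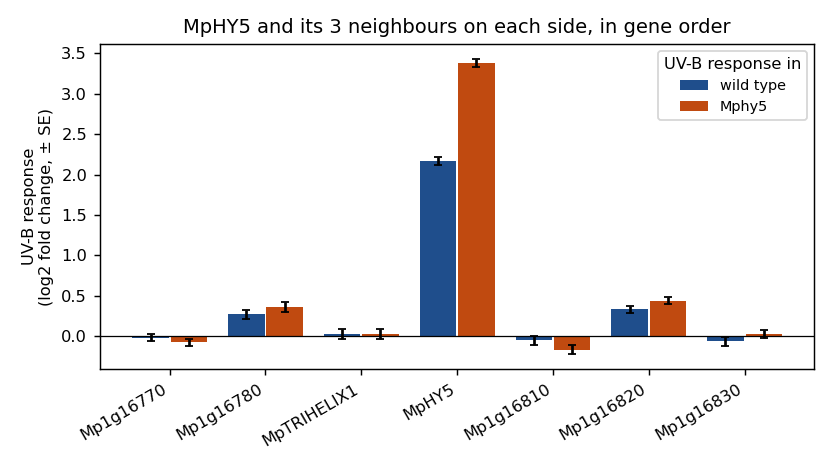
UV-B response in wild type (blue) and Mphy5 (orange) as log2 fold change ± SE for MpHY5 and the 3 genes on each side of it in gene order. MpHY5 reaches 2.17 and 3.38, and the neighbours lie between -0.17 and 0.44.

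Flavonoid genes, known HY5 targets in Arabidopsis, were set beside MpHY5 in the same comparisons. Of 67 tested genes with symbols of phenylpropanoid and flavonoid synthesis, 21 rose and 15 fell in wild type, against 14.6% of tested genes in each direction, and 21 rose and 16 fell in Mphy5, against 15.9% in each. The difference of responses was called for 6 with a more positive and 1 with a more negative value, against 1.93% and 2.54% of tested genes. The more positive calls numbered 2 with no filter on low values and 2 without limma's trend and robust options, with 0 and 1 more negative. Leaving out each library in turn gave 3 to 7 and 1 to 2. The more positive calls were 3 without untreated Mphy5 replicate 2, and 4 without untreated Mphy5 replicate 3, treated Mphy5 replicate 2, or wild type replicate 3 of either treatment. The 1 more negative call became 2 without treated Mphy5 replicate 2. The 4 with the smallest adjusted p in wild type were MpPKS/CHS2, of the chalcone synthase family, MpCHIL2, a chalcone isomerase-like protein, the flavanone hydroxylase MpF3H and MpDFR-like12, related to dihydroflavonol reductases. Between the lines with UV-B, 22 of the 67 were called higher in Mphy5 and 8 lower, against 13.8% and 16% of tested genes. The lower calls numbered 5 without treated Mphy5 replicate 3, treated wild type replicate 1 or limma's trend and robust options. The largest excess of a member was 2.85 on the log2 scale for MpDFR-like16 (limma adjusted p = 2e-13), named after its values were seen. The 4 genes above lay between -0.25 and 0.03. They were chosen by their adjusted p in wild type, and the treated wild type libraries also enter this comparison. Their values in it are therefore not independent of that choice and do not stand for the list. While MpHY5 stood 2.67-fold higher in Mphy5 with UV-B, MpPKS/CHS2 differed by 0.03 on the log2 scale there (95% interval -0.09 to 0.14), MpDFR-like12 by -0.04 (-0.13 to 0.06), MpCHIL2 by -0.25 (adjusted p = 0.00034) and MpF3H by -0.16. The last was called (0.023), but not when wild type replicate 1 (0.0747) or 2 (0.148) or Mphy5 replicate 1 (0.0874) or 3 (0.0798), all with UV-B, was left out, nor with no filter (0.078) or without trend and robust options (0.0854). MpPKS/CHS2 nevertheless had a larger response in Mphy5 (3.80 against 3.18, difference 0.62, limma adjusted p = 7.3e-05), from a level without UV-B that was lower by 0.59. The difference for MpF3H (0.31, adjusted p = 0.017) ended when Mphy5 replicate 2 of the untreated (0.061) or the treated plants (0.0506) was left out, with no filter on low values (0.109) and without limma's trend and robust options (0.13). Some of these enzymes have near-identical copies whose reads may have been split or shared, and the sources used here do not say how such reads were treated.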

How the data were processed

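RNA-seq libraries of gemmalings were made with TruSeq kits, per the labels' protocols, and the submitters' processing notes list STAR 2.7.4, an aligner. The sources used here name no genome build, annotation, counting program or strand setting, so overlapping and antisense genes cannot be told apart from the genes named. The deposited signal was scaled by the authors with 1 size factor per library, as its steps show. Dividing by the step of each library gave whole reads, within 0.02 reads, for 100% of values above 0. In wild type replicate 2 without UV-B the step is so near 1 that it shows only at high values. A count of 0 allows up to 3 reads, or 2.34 to 3.58 normalized reads, and these limits hold counting error alone.

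Gene names are those of a RefSeq table of assembly MpTak2_v7.1, matched by locus number for 99.1% of identifiers, and used for names and gene order alone. No sequence was used here. limma 3.58.1 (R 4.3.3) was fitted to log2(value + 1) with 4 group means over 12 libraries, 8 residual degrees of freedom and trend and robust options, and p-values were adjusted by Benjamini-Hochberg over 15999 genes. Fold changes are on that scale, which understates changes of low genes. Named were MpHY5, its 10 nearest genes, the light signalling list, bZIP genes called in any comparison, 4 flavonoid genes by smallest adjusted p in wild type, 3 neighbours on each side and reference genes. Others were named after their values were seen. The gene and the lists were chosen with earlier results of these data known. Alternatives were other pseudocounts, filters, scalings and fits, each library left out, and edgeR 4.0.16 and DESeq2 1.42.0 on the whole reads. The fits were tested on simulated data, with 15929 genes. In these, all groups shared the same gene means, and a set of well-covered genes was raised in treated wild type alone. The spread was assumed and not estimated from the libraries, and the draw was not repeated. Real comparisons called more genes, in both directions, so the shares below hold for the simulated setting and not for these data. In the wild type UV-B comparison limma recovered 85.1% of 1.5-fold and 100% of 2-fold changes, with 4.04% of its calls false, and in the difference of responses 56.7% and 98.5%, with 6.08% false. In the same order of comparisons, the false shares were 2.54% and 7.37% for edgeR, and 8.53% and 10.3% for DESeq2. Values were computed with Python 3.11.15, scipy 1.17.1 and pandas 2.3.3, and plots with matplotlib 3.10.9.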

Additional observations from a re-analysis of the deposited data

Results flagged for a closer look

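The UV-B response differed between Mphy5 and wild type for MpHY5, by 1.21 on the log2 scale, and for 18 of the 55 other named genes, by limma's test of the difference itself, which called 4.46% of all tested genes. Many of the 55 were named for their pattern or their calls in these libraries, so that their count is partly set by that choice. Among light signalling genes the differences were 2.01 for MpBBX2, 1.11 for MpRUP, 1.02 for MpCOP1, 0.92 for MpDET1, 0.67 for MpPRR, 0.65 for MpBBX3, 0.29 for MpBBX1 and -0.24 for MpBBX5. Among the genes nearest to MpHY5 in pattern they were 0.98 for Mp3g11080, 0.73 for Mp6g03560, 0.69 for Mp6g14720, 0.56 for MpSIG5, 0.56 for Mp6g07750 and 0.46 for Mp6g15510. Among bZIP genes they were 0.45 for MpBZIP5 and -0.35 for MpBZIP15, and among flavonoid genes 0.62 for MpPKS/CHS2 and 0.31 for MpF3H. A positive value means a more positive response in Mphy5. The calls of MpSIG5, Mp6g07750, MpBBX5, MpBZIP15 and MpF3H were lost under some of the alternatives, as given above.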

How the results depend on the processing

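The 5 comparisons of MpHY5 kept their direction under every alternative run, and 4 of them kept their call. The exception was Mphy5 against wild type without UV-B, at 0.14 after rescaling to the reference genes (adjusted p = 0.167), an alternative chosen after seeing the data. Without each library in turn that difference was 0.18 to 0.25 (highest adjusted p = 0.0371), the wild type response 2.13 to 2.21, the Mphy5 response 3.35 to 3.41, the difference of responses 1.17 to 1.25 and the excess with UV-B 1.38 to 1.46. Over the other alternatives the difference of responses was 1.20 to 1.28. Genes called for it numbered 714, 395 with no filter, 332 without trend and robust options, 802 in edgeR and 999 in DESeq2, and 481 to 729 without each library. Of the 10 nearest genes, 0 stayed with the Pearson distance and 7 to 9 without each library in turn. Samples with the same replicate number deviated together weakly at most (correlations of -0.16 to 0.25, over 0.1 in 5 of 18 pairs, with 8 of 18 closest to their own number). With the replicate number as a block the difference of responses for MpHY5 stayed at 1.21, and 779 genes were called for it, against 714 without the block. Of the 5 comparisons of the 55 other named genes, 148 were called, and their alternative values kept the call 3248 times and lost it 138 times. The 127 that were not called stayed so 2840 times and gained a call 44 times, and none turned a called direction.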
